A study of Mus musculus with 24 samples.

Results

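The 10 genes described here encode core proteins and cargo receptors of autophagy: Ulk1, Becn1, Wipi1, Atg5, Atg7, Map1lc3a, Map1lc3b, Gabarapl1, Sqstm1 and Optn. They were chosen by name, as a set of initiation, conjugation and receptor genes, and each matched 1 of the 43430 gene IDs of the counts table. Macroautophagy encloses cytoplasm, damaged organelles or protein aggregates in a double membrane, the autophagosome, which fuses with the lysosome. The Ulk1 kinase complex starts the process and the Becn1-containing lipid kinase complex makes the phosphoinositide PI3P, which Wipi1 and its relatives bind on the growing membrane. Atg7 and Atg5 belong to the machinery that couples Atg8-family proteins, such as Map1lc3a, Map1lc3b and Gabarapl1, to membrane lipid, and receptors such as Sqstm1 and Optn link ubiquitinated cargo to those Atg8 proteins. In macrophages the same machinery is also known for handling engulfed material and microbes.

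RNA-seq counts were available for sorted lung macrophages of C57BL/6J mice, in 24 libraries that form 6 groups of 4. Young mice were 8 to 12 weeks old and old mice more than 18 months old. At each age, Siglec F-high cells came from naive lungs and from lungs 28 days after asbestos, and Siglec F-low cells from the asbestos lungs only. Siglec F is a surface protein of alveolar macrophages, and the sample labels named the sorts by its level alone, whereas the design text of the series distinguished resident macrophages from those derived from monocytes. No genetic change or drug was given in the labels of any group. The labels did not say whether each library came from a separate mouse or whether mice were pooled, so the p-values measure the spread between these libraries, which may be technical in part.

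Of the 24 libraries, 2 stood apart and were left out of the tests. The rule for leaving libraries out, and the choice to apply it in the main fit, were made with earlier results of these data known. Replicate 3 of the young asbestos Siglec F-high group had only 12528 genes with a count, and old asbestos Siglec F-high replicate 3 had 58.8% of its 3894699 counts on rRNA-related genes. The other 22 libraries held 13423080 to 18124526 counts on 17069 to 18820 genes, with 0.205 to 0.552% on the rRNA-related genes. All 10 genes passed the filter on low counts, with 142 to 14083 counts in a kept library. Of the left-out libraries, the old one held 31 Wipi1 and 16 Optn counts, and the young one 300 and 27, so some of their CPM values rest on few counts. Both asbestos Siglec F-high groups therefore had 3 libraries in the tests and the other groups 4, and values with all 24 libraries are given beside the differences called.

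The DNA just upstream of Gabarapl1 and Optn, the members with the most differences below, is shown here with the GC box, the letters GGGCGG on either strand, in capitals. Both come from RefSeq on GRCm38.p6 and are written 5′ to 3′ on the strand of the gene. The Gabarapl1 stretch, chr6:129532942-129533159 on the plus strand, is the part of the 250 bases before the RefSeq start that lies upstream of the GENCODE gene, and the window overlaps an exon of 1700101I11Rik on the other strand. The Optn stretch, chr2:5064118-5064367 on the minus strand, is the whole of the 250 bases and lies upstream of the Optn gene of GENCODE.
Gabarapl1: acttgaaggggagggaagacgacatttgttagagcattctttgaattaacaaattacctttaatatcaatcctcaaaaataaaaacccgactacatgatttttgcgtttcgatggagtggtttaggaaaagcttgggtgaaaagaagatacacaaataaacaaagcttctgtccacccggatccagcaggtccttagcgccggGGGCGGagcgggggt
Optn: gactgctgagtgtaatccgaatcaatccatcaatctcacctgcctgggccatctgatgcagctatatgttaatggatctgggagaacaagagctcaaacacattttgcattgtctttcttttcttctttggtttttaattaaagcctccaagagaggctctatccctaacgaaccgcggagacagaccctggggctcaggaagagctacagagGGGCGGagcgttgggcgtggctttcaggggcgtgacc
Promoter windows of 250 bases were found for 8 of the 10 genes (not for Map1lc3a and Becn1). The GC box was present in 7 of these 8 windows, against 32.7% of the 32851 promoters of the table. The windows ran from 43.2% GC with 3 CpG dinucleotides (Atg7) to 69.6% GC with 30 (Map1lc3b). The medians of all promoters were 52.4% GC and 6 CpG dinucleotides, and the shares of all promoters were not matched for base composition. Wipi1 had 8 GC boxes, Ulk1 had 5, and Atg7 had none. The Atg7 window, chr6:114670846-114671095, lies inside the GENCODE gene (114643097 to 114860614, plus strand). The Wipi1 window, chr11:109611390-109611639, also lies inside its GENCODE gene (109573331 to 109611967, minus strand). The matches in these windows are therefore not in DNA upstream of the GENCODE genes. The Map1lc3b window, chr8:121590188-121590437, runs into its GENCODE gene, which starts at 121590361 on the plus strand. The only GC box of the Map1lc3b window lies in that part, inside the gene. Of the 2 GC boxes of the Gabarapl1 window, the one nearer the RefSeq start also lies inside its GENCODE gene, beyond the stretch shown. The E-box CACGTG was found in Atg5 and Atg7, against 6.02% of all promoters. The CCAAT box CCAAT was found in Atg7 alone, with 4 matches of which 2 overlap on opposite strands, against 33.8% of all promoters. The letters TGACNNNGC (antioxidant response element core), TGTTTAC (FoxO) and TGACTCA (AP-1) were in none of the 8 windows, and were in 10.2, 3.17 and 4.46% of all promoters. Such matches and their absence describe these letters in these windows only.

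In the tests, 16 of the 70 differences, from 10 genes in 7 comparisons of groups, passed the threshold (edgeR quasi-likelihood test, Benjamini-Hochberg adjusted p under 0.05 over 13629 genes), and all 16 were increases. Gabarapl1 passed in 6 of the 7 comparisons, Optn in 5, Wipi1 in 3, and Sqstm1 and Atg5 in 1 each. Ulk1, Becn1, Atg7, Map1lc3a and Map1lc3b passed in none. In each of the 16 cases the libraries of the groups compared did not overlap. Some differences that did not pass were also without overlap, such as Atg7 and Sqstm1 between the ages in asbestos Siglec F-high cells. The share of all genes without overlap was not counted, so the lack of overlap is given as a description only. With all 24 libraries in the fit only 1 of the 16 passed, Gabarapl1 between the sorts of young asbestos lungs. Levels below are CPM, the counts relative to the TMM-scaled library size, and changes are log2 fold changes ± SE. The asbestos Siglec F-high groups enter the age, asbestos and sort comparisons, and the naive groups both the age and the asbestos comparisons, so these comparisons share libraries and are not independent of each other. In sorted bulk samples, fewer cells of a type and less RNA per cell cannot be told apart.

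**Figure D1:**
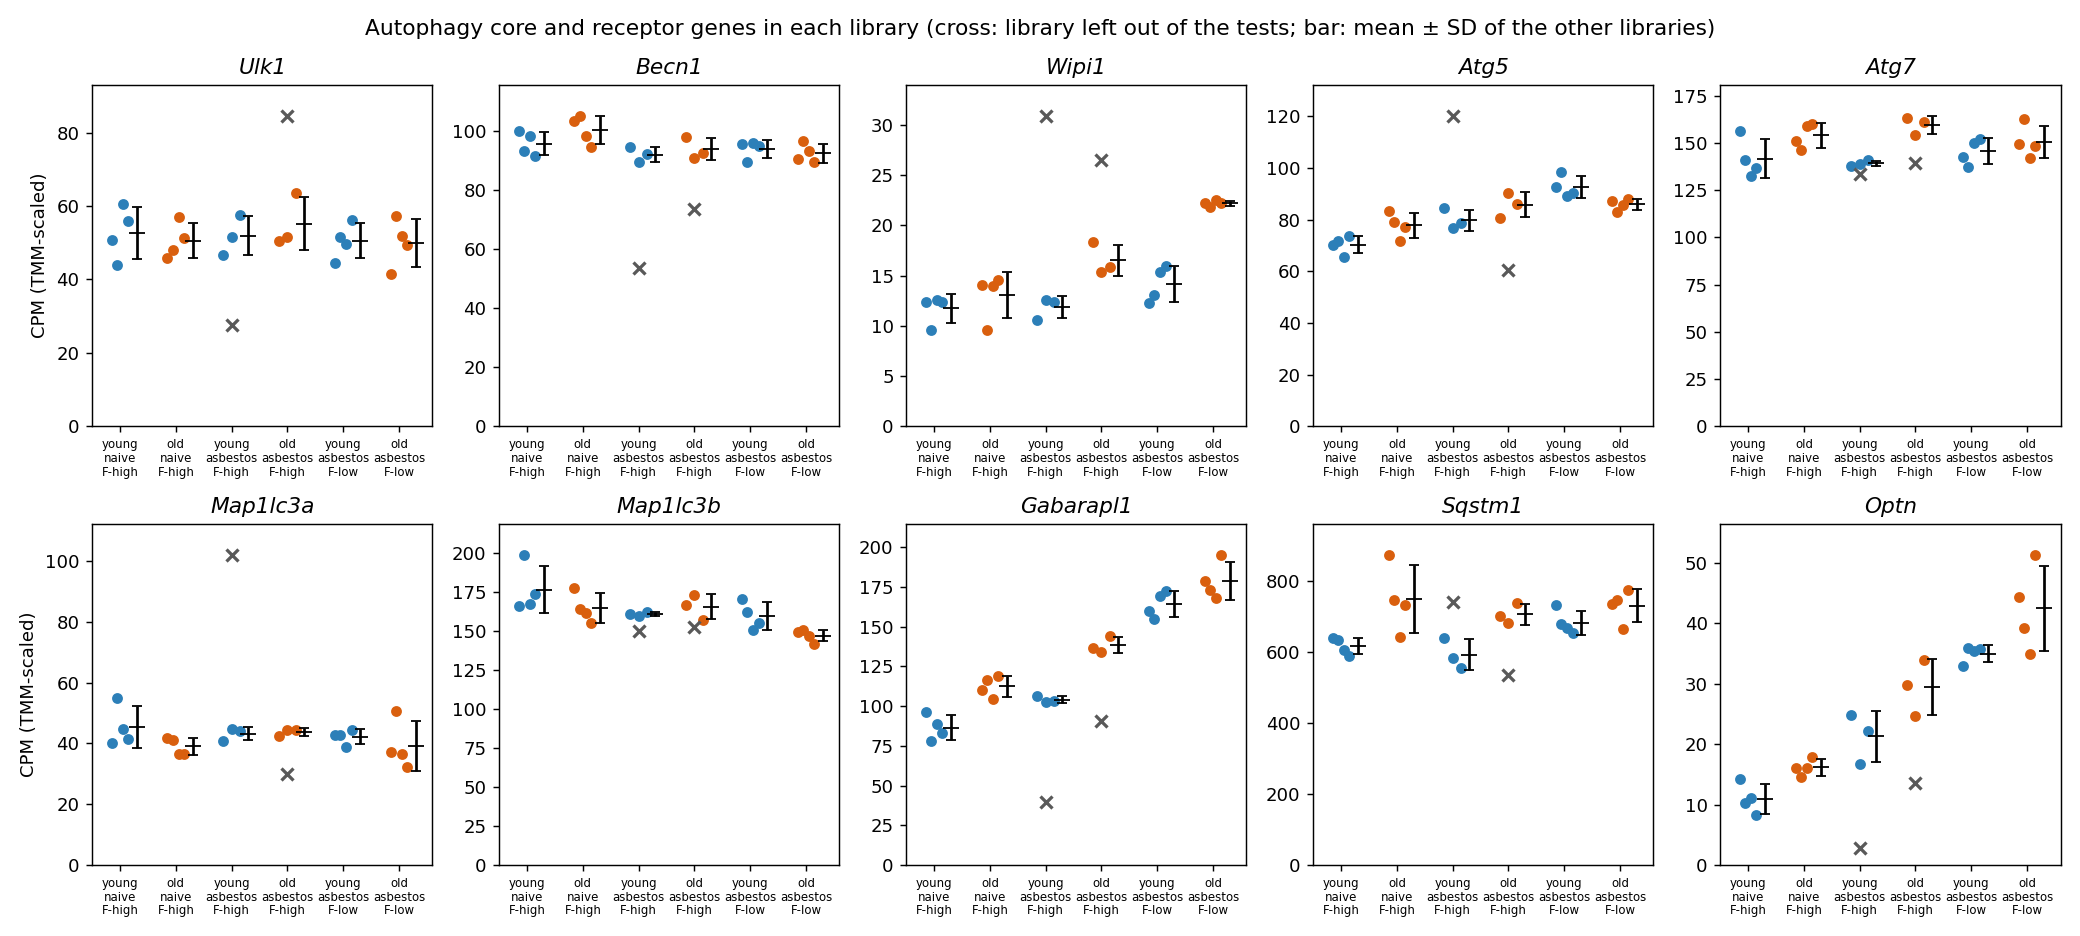
CPM (y axis, from 0) of each of the 10 genes in every library, by group (x axis), with young in blue and old in orange. Bars are the mean ± SD of the tested libraries and crosses are the 2 libraries left out. Gabarapl1 and Optn climb from young naive Siglec F-high to old asbestos Siglec F-low (mean 86.4 to 179 CPM and 11 to 42.4 CPM), while Ulk1 stays between group means of 49.98 and 55.2 CPM.

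Against the background of all genes tested, the members were called as follows. Old against young naive Siglec F-high cells gave 3 of 10 members (Gabarapl1, Sqstm1, Optn), with 7.81% of all genes called and 4.99% called higher. Old against young asbestos Siglec F-high cells gave 2 (Gabarapl1, Wipi1), with 7.16% of all genes called and 4.72% called higher. Old against young asbestos Siglec F-low cells gave 1 (Wipi1), with 7.04% of all genes called and 3.65% called higher, so that 1 member in 10 lies near the background. Asbestos against naive Siglec F-high cells gave Gabarapl1 and Optn at both ages, with 5.07% of all genes called (3.46% higher) in young and 3.85% (2.99% higher) in old mice. Siglec F-low against Siglec F-high cells gave 3 members in young asbestos lungs (Gabarapl1, Optn, Atg5), with 12.0% of all genes called and 7.40% higher, and 3 in old asbestos lungs (Gabarapl1, Optn, Wipi1), with 11.5% called and 6.28% higher. A fit of the asbestos libraries alone, with a replicate block within age and 13089 genes tested, called 4 members in the young and 3 in the old sort comparison, with 26.1% and 19.6% of all genes called. In the fit of all 24 libraries the shares of all genes called were 1.99, 4.66, 1.29, 1.90, 0.743, 4.90 and 4.27% in the same 7 comparisons. The median log2 fold change of the 10 members was 0.13, 0.15, 0.02, -0.03, 0.13, 0.13 and -0.01 in these 7 comparisons in turn, and that of all genes lay between -0.01 and 0.01.

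**Figure D2:**
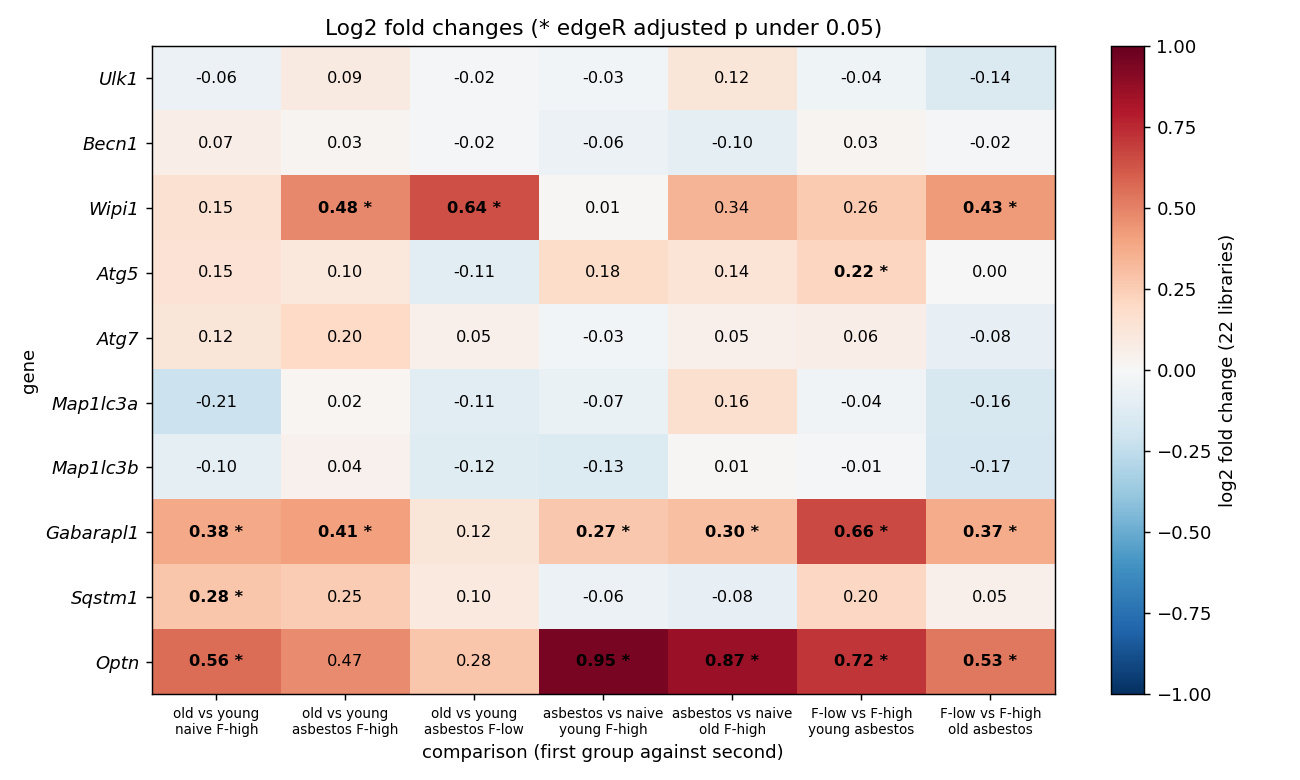
Log2 fold change of each gene (rows) in each comparison (columns) from the fit of 22 libraries, printed in the cell and coloured from -1 (blue) to 1 (red), with a star where the edgeR adjusted p is under 0.05. The 16 starred cells lie in the rows of Gabarapl1, Optn, Wipi1, Sqstm1 and Atg5 and all are positive, from 0.22 to 0.95.

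Among the initiation genes, Ulk1, the kinase that starts autophagosome formation, had group means between 49.98 ± 6.55 CPM (SD, n = 4, old asbestos Siglec F-low) and 55.2 ± 7.27 CPM (n = 3, old asbestos Siglec F-high), and its kept libraries ranged from 41.5 to 63.6 CPM. No neighbouring pair of its group means differed by more than the larger SD. Becn1, the beclin subunit of the PI3P-making complex, was as even, with group means from 91.8 ± 2.47 to 100.2 ± 4.73 CPM and libraries from 89.2 to 105 CPM. For Ulk1 the differences lay between -0.14 and 0.12, with SEs of 0.11 to 0.13, and for Becn1 between -0.10 and 0.07, with SEs of 0.05 to 0.06. The fit of all 24 libraries gave a wider range, from -0.30 (sorts of old lungs) to 0.41 (age in asbestos Siglec F-high cells) for Ulk1 and from -0.21 to 0.19 for Becn1, with no adjusted p under 0.05. The Becn1 exons overlap those of Cntd1 on the other strand over 3104 bases, and Cntd1 itself held 168 counts over the 24 libraries.

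Wipi1, which binds PI3P on forming autophagosomes, was highest in old asbestos Siglec F-low cells. Its 4 libraries there had 22.2, 21.8, 22.5 and 22.2 CPM, against 12.3, 13.1, 15.3 and 16 CPM in young asbestos Siglec F-low cells. The ranges did not overlap, and the old-to-young difference was 0.64 ± 0.12 (edgeR adjusted p = 0.00151). It passed in all 22 refits that each left out 1 library (highest adjusted p = 0.00902), and with all 24 libraries it was 0.64 with an adjusted p of 0.358. Here and below, leaving out a library of another group can change a call only through the shared spread, scaling, filter and adjustment. The SD of 0.280 CPM in old asbestos Siglec F-low cells was the smallest of the 6 groups for Wipi1, the others lying between 1.095 and 2.33 CPM.

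In asbestos Siglec F-high cells Wipi1 had 18.3, 15.3 and 15.9 CPM in old and 10.6, 12.6 and 12.4 CPM in young mice. The old libraries all lay above the young ones, and the difference was 0.48 ± 0.14 (edgeR adjusted p = 0.0419). That call was lost without any 1 of the 6 libraries compared: adjusted p was 0.147, 0.0812 and 0.0836 without young replicates 1, 2 and 4, and 0.185, 0.056 and 0.0712 without old replicates 1, 2 and 4. The left-out libraries were the 2 highest Wipi1 values of all 24, 30.9 CPM in young and 26.5 CPM in old asbestos Siglec F-high cells, and with them the difference was 0.14 (adjusted p = 0.761). Between the sorts of old asbestos lungs Wipi1 was 0.43 ± 0.13 higher in Siglec F-low cells (edgeR adjusted p = 0.0352), and 0.29 with all 24 libraries (adjusted p = 0.683). This call was lost without old asbestos Siglec F-high replicate 2 or 4 (adjusted p = 0.152 and 0.115) and without Siglec F-low replicate 1, 3 or 4 (0.0631, 0.0696 and 0.0743).

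In the naive groups Wipi1 had 12.4, 9.59, 12.6 and 12.4 CPM in young and 14.1, 9.61, 14 and 14.6 CPM in old Siglec F-high cells. The second library was the lowest of its group at both ages and the groups overlapped, with a difference of 0.15 ± 0.12 (edgeR adjusted p = 0.554). In the order of group means, from young naive (11.7 CPM) to old asbestos Siglec F-low cells (22.2 CPM), the neighbours up to young asbestos Siglec F-low cells (14.2 CPM) did not differ beyond their SD.

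Of the conjugation genes, Atg5, which is joined to Atg12 in the complex that directs Atg8 lipidation, had its highest mean in young asbestos Siglec F-low cells. The libraries there held 92.8, 98.5, 89.1 and 90.5 CPM, against 84.4, 76.6 and 78.6 CPM in young asbestos Siglec F-high cells. The groups did not overlap, and the difference was 0.22 ± 0.07 (edgeR adjusted p = 0.0329), the smallest of the 16 called. It was 0.05 with all 24 libraries (adjusted p = 0.855), where the added library held 120.2 CPM. The call was also lost with no filter on low counts (adjusted p = 0.160) and with only the groups compared in the fit (0.0659). Leaving out young asbestos Siglec F-high replicate 2 or 4 (adjusted p = 0.158 and 0.113) or Siglec F-low replicate 1 or 2 (0.0624 and 0.109) also ended the call. In old asbestos lungs Atg5 was at 85.8 ± 4.81 CPM (n = 3) in Siglec F-high and 86.0 ± 2.18 CPM (n = 4) in Siglec F-low cells. The lowest mean was in young naive cells, at 70.3 ± 3.34 CPM, and the old naive libraries had 83.4, 79.3, 71.7 and 77.2 CPM.

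Atg7, the E1-like enzyme that activates Atg8-family proteins and Atg12, had group means from 139 ± 1.44 CPM (n = 3, young asbestos Siglec F-high) to 159.5 ± 4.69 CPM (n = 3, old asbestos Siglec F-high). Its libraries in those groups did not overlap, at 138, 139 and 141 CPM in young and 163, 154 and 161 CPM in old mice. The difference of 0.20 ± 0.07 had an adjusted p of 0.0931 in edgeR, and was 0.17 with all 24 libraries (adjusted p = 0.210). No neighbouring pair of its 6 group means differed beyond the larger SD.

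In the Atg8 family, Gabarapl1 stood apart from both Map1lc3 genes. Gabarapl1 has its gene on chromosome 6 (GRCm38 129533160 to 129542346, plus strand) and belongs to the GABARAP branch of the family. Its exons overlap those of 1700101I11Rik on the other strand over 570 bases, and that gene held 135 counts over the 24 libraries. Its libraries had 96.0, 77.9, 88.5 and 83.1 CPM in young naive and 110.0, 116, 104 and 119 CPM in old naive Siglec F-high cells. After asbestos the Siglec F-high libraries had 106, 102 and 103 CPM in young and 137, 134 and 144 CPM in old mice. The Siglec F-low libraries had 159.8, 155, 169 and 172 CPM in young and 179, 173, 168 and 195 CPM in old mice. The libraries of old mice lay above those of young mice in both Siglec F-high pairs, and overlapped with them in the Siglec F-low pair.

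Gabarapl1 was higher in old than in young cells by 0.38 ± 0.07 in naive Siglec F-high (edgeR adjusted p = 0.000603) and by 0.41 ± 0.08 in asbestos Siglec F-high cells (adjusted p = 0.00152). Both calls held in all 22 refits that left out 1 library. In the Siglec F-low cells the difference was 0.12 ± 0.07 (edgeR adjusted p = 0.308). The fit of all 24 libraries gave 0.38, 0.53 and 0.12 in these 3 comparisons (adjusted p = 0.687, 0.106 and 0.999772).

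Asbestos Siglec F-high cells had more Gabarapl1 than naive ones at both ages. The difference was 0.27 ± 0.07 in young (edgeR adjusted p = 0.0313) and 0.30 ± 0.07 in old mice (adjusted p = 0.0190). In young mice the call was lost without young naive replicates 2, 3 or 4 (adjusted p = 0.0821, 0.057 and 0.0903) and likewise without replicate 1, 2 or 4 of the young asbestos Siglec F-high cells (0.169, 0.0672 and 0.0814). In old mice it was lost without old naive replicate 3 (0.066) or replicate 1 or 4 of the old asbestos Siglec F-high cells (0.0586 and 0.0977). The left-out libraries held 39.9 CPM (young) and 90.5 CPM (old), below every kept library of their groups, and with them the differences were 0.03 (adjusted p = 0.944) and 0.18 (adjusted p = 0.955). Of the 2 interactions tested, age by asbestos gave 0.03 for Gabarapl1 (95% interval -0.17 to 0.23, edgeR adjusted p = 0.999).

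Gabarapl1 also differed between the sorts. Siglec F-low exceeded Siglec F-high cells by 0.66 ± 0.07 in young asbestos lungs (edgeR adjusted p = 1.37e-06) and by 0.37 ± 0.07 in old asbestos lungs (adjusted p = 0.00115), and both calls held without any 1 library. Including all 24 libraries, these were 0.90 (adjusted p = 0.00791) and 0.49 (adjusted p = 0.213). The difference between the ages in this sort effect was -0.29 (95% interval -0.49 to -0.09), with an unadjusted edgeR p of 0.00979 and an adjusted p of 0.613. In the order of group means, young asbestos Siglec F-high (104 CPM) and old naive cells (112 CPM) overlapped, as did the Siglec F-low groups (164 and 179 CPM), and the other neighbours did not overlap.

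Map1lc3b and Map1lc3a encode LC3B and LC3A, the LC3 branch of the family and the usual markers of autophagosomes. Map1lc3b had group means from 147 ± 3.84 CPM in old asbestos Siglec F-low to 177 ± 15.2 CPM in young naive cells, the opposite ends of the Gabarapl1 order. None of its differences passed, the widest being -0.17 ± 0.07 between the sorts of old asbestos lungs (edgeR adjusted p = 0.115). Map1lc3a had group means from 39.1 to 45.4 CPM, with all neighbours overlapping. Its differences ran from -0.21 to 0.16 in the 22 libraries and from -0.49 (age in asbestos Siglec F-high cells) to 0.35 with all 24, where the left-out libraries held 102 CPM (young) and 29.9 CPM (old). Processed copies share sequence with Map1lc3b (Gm6055, Gm12727 and Gm6054), so its counts depend in part on how reads with several matches were treated.

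Because the Gabarapl1 and Map1lc3b counts come from the same library, their ratio does not depend on the scaling. It was chosen after the values were seen and is given as a description. The ratio of the Gabarapl1 to the Map1lc3b count was 0.494 ± 0.0793 in young naive, 0.685 ± 0.0667 in old naive, 0.647 ± 0.0134 in young asbestos Siglec F-high and 0.837 ± 0.0727 in old asbestos Siglec F-high cells (SD). In Siglec F-low cells it was 1.03 ± 0.0993 in young and 1.22 ± 0.108 in old mice, so that old Siglec F-low cells had more Gabarapl1 than Map1lc3b counts in all 4 libraries (1.15 to 1.37). Counts grow with exon length, 1820 bases for Gabarapl1 and 5182 for Map1lc3b, so a ratio of 1 does not mean equal levels. Per kilobase Gabarapl1 was above Map1lc3b already in young naive cells (47.5 against 34.1 CPM per kb). The left-out libraries had ratios of 0.266 (young) and 0.592 (old), below the kept libraries of their groups.

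Of the receptors, Sqstm1, which encodes p62 and gathers ubiquitinated proteins for autophagy, was the most abundant member and differed with age in naive cells. Its libraries had 638, 635, 604 and 590.1 CPM in young naive and 874, 747, 643 and 734 CPM in old naive Siglec F-high cells. The lowest old library (643 CPM) lay just above the highest young one (638 CPM). The difference was 0.28 ± 0.08 (edgeR adjusted p = 0.0208), and with all 24 libraries also 0.28, with an adjusted p of 0.386. The call was lost without young naive replicate 3 or 4 (adjusted p = 0.0598 and 0.0711) and without old naive replicate 1, the highest library (0.105).

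In asbestos Siglec F-high cells Sqstm1 had 701, 681 and 739 CPM in old and 640.0, 583 and 555 CPM in young mice. The groups did not overlap, but the difference of 0.25 ± 0.09 did not pass (edgeR adjusted p = 0.0814), and it was 0.08 with all 24 libraries (adjusted p = 0.697). In Siglec F-low cells the age difference was 0.10 ± 0.08, and asbestos against naive gave -0.06 ± 0.08 in young and -0.08 ± 0.08 in old mice. Siglec F-low against Siglec F-high cells differed by 0.20 ± 0.08 in young asbestos lungs (edgeR adjusted p = 0.111), and by 0.12 with all 24 libraries (adjusted p = 0.574). Exons of Sqstm1 overlap those of Mrnip on the other strand over 580 bases, and Mrnip held 674 counts over the 24 libraries.

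Optn, which encodes optineurin, a receptor for ubiquitinated mitochondria, bacteria and aggregates, had the widest range of the 10 genes. Its gene lies on chromosome 2 (GRCm38 5020642 to 5064051, minus strand). The libraries had 14.2, 10.3, 11.1 and 8.34 CPM in young naive and 16, 14.6, 16.1 and 17.9 CPM in old naive Siglec F-high cells. After asbestos they had 24.9, 16.7 and 22.3 CPM in young and 29.9, 24.7 and 33.9 CPM in old Siglec F-high cells. Siglec F-low libraries had 32.9, 35.8, 35.3 and 35.7 CPM in young and 44.4, 39.2, 34.8 and 51.3 CPM in old mice. From the lowest to the highest group mean, 11 to 42.4 CPM, the span was 3.87-fold, against 2.07-fold for Gabarapl1, 1.89-fold for Wipi1 and at most 1.32-fold for the other 7 genes.

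Asbestos Siglec F-high cells had more Optn than naive cells, by 0.95 ± 0.16 in young (edgeR adjusted p = 0.000699) and 0.87 ± 0.15 in old mice (adjusted p = 0.00148). These were the largest member differences, and both passed in all 22 refits without 1 library (highest adjusted p = 0.0131 and 0.0194). In the fit of all 24 libraries they were 0.62 (adjusted p = 0.334) and 0.73 (adjusted p = 0.605), where the added libraries held 2.78 CPM (young) and 13.7 CPM (old). The age by asbestos interaction was -0.09 (95% interval -0.52 to 0.34, edgeR adjusted p = 0.999).

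Siglec F-low exceeded Siglec F-high cells in Optn by 0.72 ± 0.15 in young (edgeR adjusted p = 0.00247) and 0.53 ± 0.15 in old asbestos lungs (adjusted p = 0.0217). The first passed without any 1 library (highest adjusted p = 0.0345). The second was lost without old asbestos Siglec F-high replicate 1 or 2 (0.0669 and 0.145) or Siglec F-low replicate 4 (0.0963). The 24-library values were 1.06 (adjusted p = 0.0861) and 0.67 (adjusted p = 0.383).

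Old naive Siglec F-high cells had more Optn than young ones, by 0.56 ± 0.15 (edgeR adjusted p = 0.0209), a call lost without young naive replicate 3 or 4 (0.0503 and 0.0939) or old naive replicate 4 (0.0719). It was 0.55 with all 24 libraries (adjusted p = 0.875). The age differences after asbestos were 0.47 ± 0.16 in Siglec F-high (edgeR adjusted p = 0.0834) and 0.28 ± 0.14 in Siglec F-low cells (adjusted p = 0.253). In the order of group means the lowest neighbours, young and old naive cells, did not overlap, while every later pair of neighbours did.

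**Figure D3:**
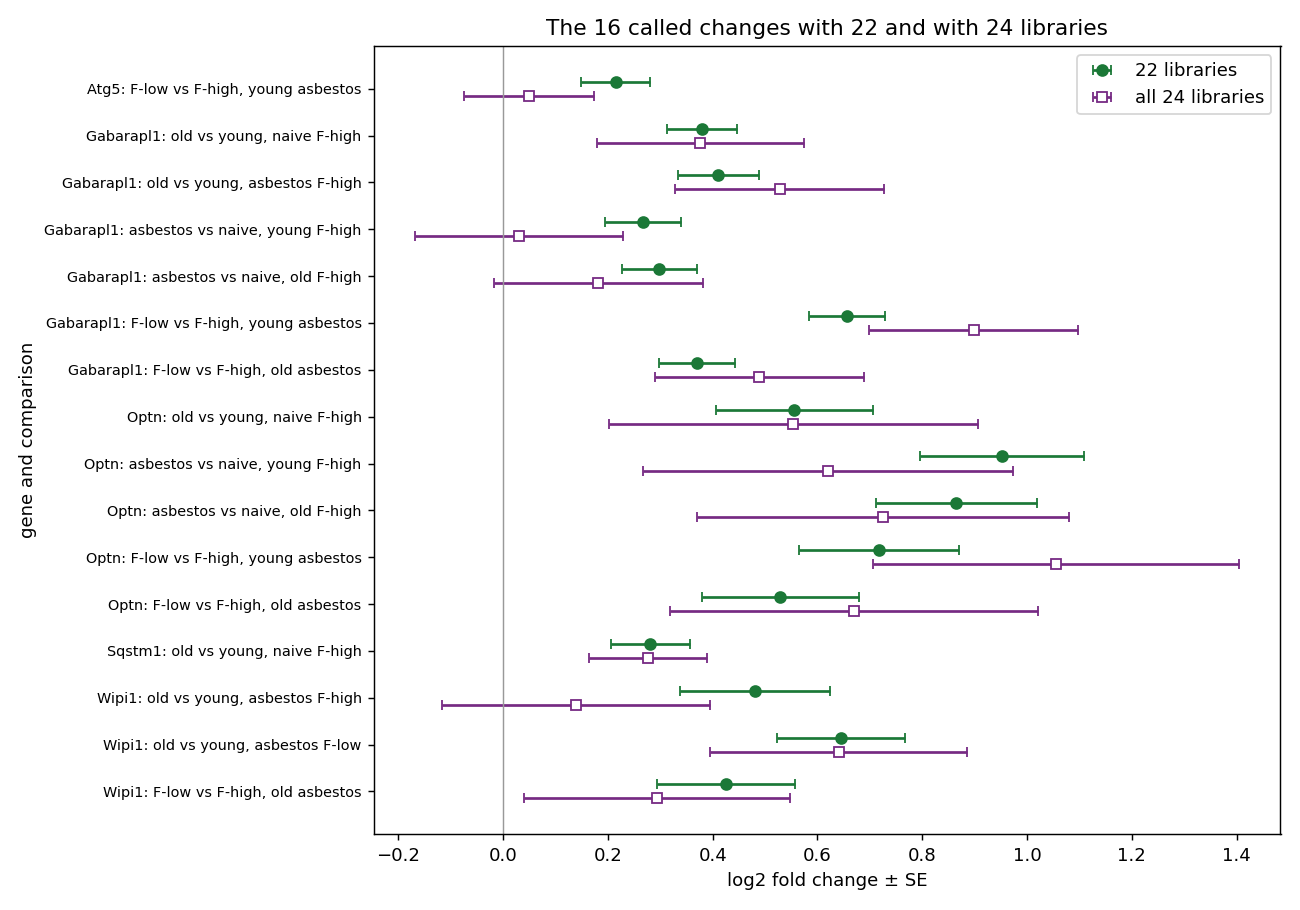
The 16 called differences (y axis, gene and comparison) as log2 fold change ± SE (x axis), with 22 libraries (green circles) and with all 24 (purple squares). The estimates stay above 0 in both, but the SE widens with 24 libraries, and Atg5 and the young asbestos Gabarapl1 difference fall to 0.05 and 0.03.

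No member passed in either interaction, age by asbestos in Siglec F-high cells or age by sort in asbestos lungs, each with 0.0147% of all genes called (2 genes). At an unadjusted edgeR p under 0.05 there were 0 members for age by asbestos and 2 for age by sort, and DESeq2 called 0 in both. The members at an unadjusted p under 0.05 for age by sort were Gabarapl1 and Atg5, the latter with -0.21 (95% interval -0.39 to -0.03). For Wipi1 the estimates were 0.33 (-0.04 to 0.70) for age by asbestos and 0.16 (-0.20 to 0.53) for age by sort.

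Levels were compared between genes per kilobase of exon in protein-coding transcripts. Sqstm1 was highest, at 209.9 to 265 CPM per kb over the group means, and Gabarapl1 came next, rising from 47.5 ± 4.26 CPM per kb in young naive to 98.2 ± 6.47 CPM per kb in old asbestos Siglec F-low cells. Map1lc3a (35.1 to 40.8 CPM per kb) and Map1lc3b (28.4 to 34.1 CPM per kb) lay below it in all 6 groups. Optn started at 4.19 ± 0.928 CPM per kb in young naive cells, below Ulk1 (10.1 ± 1.35), and reached 16.2 ± 2.72 in old asbestos Siglec F-low cells, above Ulk1 (9.56 ± 1.25). Wipi1 was lowest, at 2.75 to 5.19 CPM per kb.

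**Figure D4:**
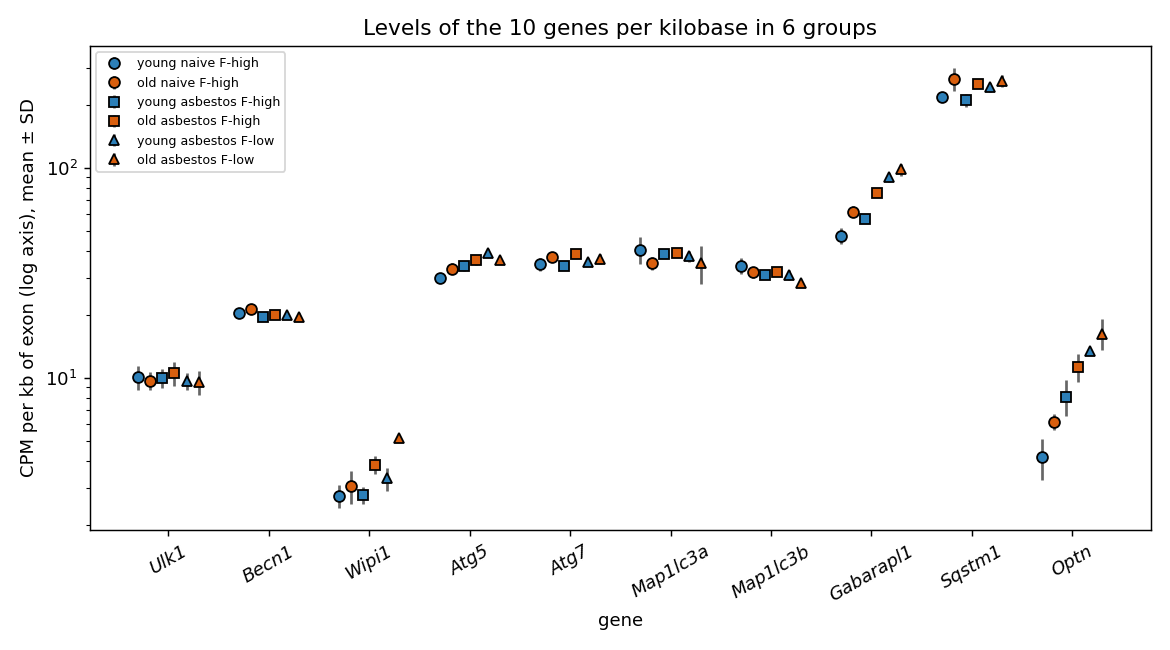
Group means ± SD of CPM per kilobase of exon (log y axis) for the 10 genes (x axis), with circles for naive Siglec F-high, squares for asbestos Siglec F-high and triangles for asbestos Siglec F-low, young in blue and old in orange. Sqstm1 is highest (209.9 to 265) and Wipi1 lowest (2.75 to 5.19), and Optn crosses Ulk1 between the naive and the Siglec F-low groups.

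By Pearson's r of log2 CPM over the 22 libraries, the genes most like Optn were Vat1 (r = 0.984), Lrrc27 (0.982) and Rragd (0.979). Those most like Gabarapl1 were Acer3 (0.976), Dhcr7 (0.974) and Cxcl16 (0.973), and those most like Wipi1 were Dlgap4 (0.907), Agtrap (0.895) and Uhrf1bp1l (0.891). These points share libraries, groups and scaling, and the values are given as a description. Vat1 went from 418 CPM in young naive to 1017 CPM in old asbestos Siglec F-low cells, and Lrrc27 from 1.63 to 22 CPM. Acer3 went from 4.79 to 31.4 CPM and Cxcl16 from 6.10 to 47.1 CPM between the same groups.

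The wider autophagy machinery was read from a list of 67 genes that includes the 10, of which 66 could be tested. In all, 24 were called in at least 1 of the 7 comparisons and 42 in none. Old against young naive Siglec F-high cells gave 4 higher and 0 lower, old against young asbestos Siglec F-high 4 and 0, and old against young asbestos Siglec F-low 1 and 2. These are 6.06, 6.06 and 4.55% of the list, below the 7.81, 7.16 and 7.04% of all genes called. Asbestos against naive gave 3 higher and 1 lower in young and 4 and 0 in old mice, 6.06% of the list each beside 5.07 and 3.85% of all genes. Siglec F-low against Siglec F-high gave 12 higher and 2 lower in young and 6 and 3 in old asbestos lungs, which is 21.2% and 13.6% of the list beside 12.0% and 11.5% of all genes. The list's median log2 fold change was 0.06 in the young and -0.01 in the old sort comparison, beside -0.0015 and -0.01 for all genes.

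Between the sorts of young asbestos lungs, Vmp1, a membrane protein of the endoplasmic reticulum needed for autophagosome formation, was higher in Siglec F-low cells, at 98.9 ± 8.65 against 74.7 ± 5.45 CPM and with a difference of 0.40 ± 0.07 (edgeR adjusted p = 0.000525). Tex264, a receptor for autophagy of the endoplasmic reticulum, was at 137 ± 11.6 against 104 ± 4.56 CPM (0.41 ± 0.08, edgeR adjusted p = 0.000664). Both passed without any 1 library, and with all 24 they were 0.39 (adjusted p = 0.209) and 0.0073 (adjusted p = 0.993). Lower in Siglec F-low cells were Wdfy3, a scaffold of aggregate clearance (229 ± 28.2 against 306 ± 26.3 CPM), and Stx17, the SNARE of autophagosome fusion (23.9 ± 2.03 against 30.3 ± 1.25 CPM). Their differences of -0.42 ± 0.11 and -0.34 ± 0.09 (edgeR adjusted p = 0.0125 and 0.0136) were lost in 3 and 2 of the 22 refits without 1 library, and were -0.25 and -0.20 with all 24 (adjusted p = 0.686 and 0.409).

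In old asbestos lungs, Siglec F-low cells again had more Vmp1 (0.33 ± 0.07, edgeR adjusted p = 0.00323), Tmem41b, a membrane protein that acts with Vmp1 (0.44 ± 0.10, adjusted p = 0.00648) and Tex264 (0.31 ± 0.07, adjusted p = 0.00717) than Siglec F-high cells, each in all 22 refits. In the 24-library fit Vmp1 turned to -0.0076 (adjusted p = 0.996), while Tmem41b was 0.55 (0.124) and Tex264 0.45 (0.293). Lower were Pik3c3, the lipid kinase itself (-0.26 ± 0.08, edgeR adjusted p = 0.0218), Ambra1, a regulator of Becn1 (-0.32 ± 0.10, adjusted p = 0.0314), and Ulk2, the paralog of Ulk1 (-0.27 ± 0.09, adjusted p = 0.0446). These calls were lost in 4, 5 and 13 of the 22 refits, and the 24-library values were -0.19, -0.53 and -0.37 (adjusted p = 0.345, 0.244 and 0.0917). The Pik3c3 and Ambra1 losses all came without a library of the groups compared.

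**Figure D5:**
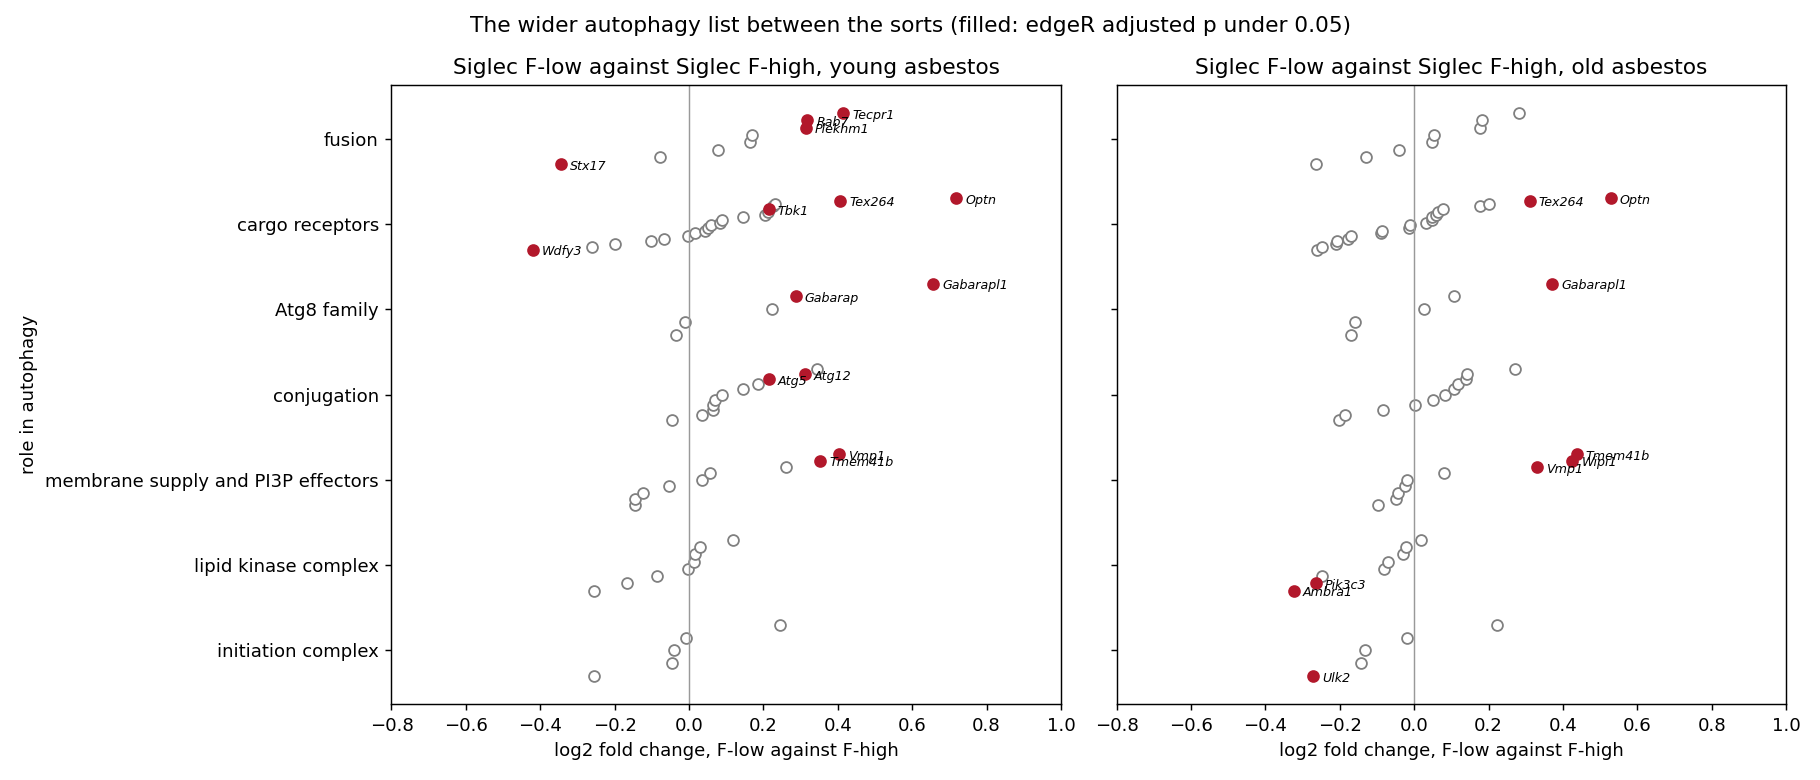
Log2 fold change of Siglec F-low against Siglec F-high cells (x axis) for the tested genes of the wider list, arranged by role (y axis), in young (left) and old (right) asbestos lungs. Filled red points have an edgeR adjusted p under 0.05; in young lungs 12 lie right and 2 left of 0, and in old lungs 6 right and 3 left.

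In the age comparisons the other genes called were few. Plekhm1, an adaptor of lysosome fusion, was higher in old naive cells (166 ± 11.8 against 134 ± 15.1 CPM, 0.32 ± 0.07, edgeR adjusted p = 0.00813). Atg4a, a protease that trims Atg8 proteins, and Tecpr1, a tether of autophagosome fusion, were higher in old asbestos Siglec F-high cells (0.58 ± 0.14 and 0.41 ± 0.11, edgeR adjusted p = 0.0146 and 0.0223). Atg4c, a relative of Atg4a, and Bnip3l, a receptor for mitochondria, were lower in old Siglec F-low cells (-0.32 ± 0.09 and -0.18 ± 0.05, edgeR adjusted p = 0.0263 and 0.0453). The Plekhm1 call held in all 22 refits, and the others were lost in 2 (Atg4a), 4 (Tecpr1), 6 (Atg4c) and 16 (Bnip3l). In the 24-library fit Plekhm1 was 0.31 (adjusted p = 0.158), Atg4a 0.34 (0.199), Atg4c -0.33 (0.404) and Bnip3l -0.18 (0.999772).

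After asbestos, Tmem41b was higher in Siglec F-high cells by 0.39 ± 0.10 in young and 0.39 ± 0.11 in old mice (edgeR adjusted p = 0.0278 and 0.0340), calls lost in 3 and 5 of the 22 refits and at 0.20 and 0.28 with all 24 libraries (adjusted p = 0.554 and 0.817). Atg10, the enzyme that joins Atg12 to Atg5, was higher in old mice (9.41 ± 1.17 against 6.49 ± 0.639 CPM, 0.54 ± 0.14, edgeR adjusted p = 0.0311), lost in 4 refits and 0.50 with all 24 libraries (adjusted p = 0.283). Atg14, a subunit of the Becn1 complex, was the 1 gene lower after asbestos in young mice, at 15.3 ± 1.44 against 22.6 ± 2.83 CPM (-0.57 ± 0.12, edgeR adjusted p = 0.00446), in all 22 refits. When all 24 libraries were fitted, Atg14 (-0.72, adjusted p = 0.0200) and Tecpr1 in the asbestos Siglec F-high age comparison (0.42, adjusted p = 0.0381) passed, beside Gabarapl1 in the young sort comparison.

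Cell type markers moved with the same groups. The summed level of 12 markers of monocyte-derived macrophages was 1299 to 1907 CPM in young asbestos Siglec F-high and 4346 to 6977 CPM in young asbestos Siglec F-low libraries, and 2164 to 2373 against 5752 to 6060 CPM in old mice, with 10 of 12 higher in Siglec F-low cells at each age. The largest part of these sums was Spp1, at 620 to 931 against 2588 to 5049 CPM in young and 1081 to 1168 against 2607 to 3510 CPM in old mice. Siglecf, the sort marker, was at 461 to 505 CPM in young and 484 to 502 CPM in old asbestos Siglec F-high libraries, against 250 to 309 and 156 to 234 CPM in Siglec F-low ones. The same 12 markers summed to 947 to 1241 CPM in young naive and 1117 to 1812 CPM in old naive cells. Of them 3 were higher with age in naive cells, 3 higher and 1 lower with age in asbestos Siglec F-high cells, 7 higher with age in Siglec F-low cells, and 5 in young and 3 in old mice higher after asbestos. The 12 alveolar macrophage markers, among them Marco, Pparg, Car4 and Itgax, were detected in all 6 groups. Between the sorts 3 were higher and 4 lower in Siglec F-low cells of young, and 1 higher and 5 lower in those of old asbestos lungs. Their sum was 27867 to 31638 CPM in young asbestos Siglec F-high and 40781 to 53122 CPM in Siglec F-low libraries. In old mice it was 40908 to 45722 against 58264 to 73155 CPM. Most of it was Chil3, at 19349 to 22983 against 32654 to 44267 CPM in young and 31911 to 36396 against 50064 to 64227 CPM in old mice. The part of these markers in the Gabarapl1, Optn, Wipi1, Sqstm1 and Atg5 differences was not tested.

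The epithelial markers summed to 185 to 290.2 CPM in young naive and 299.7 to 410.2 CPM in old naive cells, and to 216 to 264 against 282 to 381 CPM in young and old asbestos Siglec F-high cells. Neither pair overlapped, and none of the 6 epithelial markers tested was called with age (edgeR). In naive cells the sums were mostly Cdh1 and Epcam. Cdh1 was at 90.9 to 119 CPM in young and 123 to 196 CPM in old naive cells. Epcam was at 50.3 to 179 and 165 to 196 CPM. The other epithelial markers were low and overlapped between the ages, such as Sftpc at 3.30 to 11.2 and 3.96 to 8.41 CPM. B cell markers summed to 241 to 272 CPM in young naive and 311 to 471 CPM in old naive cells, without overlap, with 1 of 8 called higher and a median log2 fold change of -0.21 over the 8; 5 of 8 were lower after asbestos in young and 3 of 8 in old mice. Neutrophil markers summed to 32.2 to 102.5 CPM, with 3 of the 5 tested higher in Siglec F-low cells of young asbestos lungs and 3 of 5 higher with age in asbestos Siglec F-high cells. Ly6g was at 0 in all groups but old asbestos Siglec F-low. Eosinophil markers summed to at most 6.08 CPM and fibroblast markers to at most 12.5 CPM. Their part in the member differences was not tested.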

How the data were processed

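The authors deposited 1 table of raw counts per Ensembl mouse gene, whole numbers in 24 columns. Per the submitters' processing notes, bcl2fastq 2.19.1, FastQC, Trimmomatic 0.36, STAR 2.6.0, HTSeq 0.11.2 and mm10 were used; per the labels' protocols, 30 ng of RNA went through poly(A) selection and a NEBNext Ultra library kit. The annotation, the strand setting and the treatment of reads with several matches are not given in the sources used here, and reads of overlapping genes on opposite strands cannot be told apart. Symbols came from GENCODE M21 on GRCm38 for 42462 of 43430 IDs, and the 968 others held 0.117 to 0.196% of a library's counts.

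Libraries with over 10% of counts on rRNA-related genes, or under 16000 genes with a count, were left out (2 of 24). Of 9 rRNA-related names, 5 were in the table. Genes were kept with filterByExpr (minimum count 10, minimum total 15), counts were scaled by TMM and tested with glmQLFit and glmQLFTest of edgeR 4.0.16 in R 4.3.3, with 1 term per group over 22 libraries and Benjamini-Hochberg adjustment over 13629 genes. CPM of the left-out libraries are on the same scale. Tests were checked on simulated data. Alternatives were all 24 libraries, DESeq2 1.42.0, limma voom 3.58.1, RLE size factors, no filter, only the groups compared, replicate blocks and leaving out each library.

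Groups share replicate numbers in the labels, with no stated meaning. Deviations of same-numbered libraries correlated over 0.1 for all 3 numbers only between the sorts of old asbestos lungs (0.150 to 0.205). Between the sorts of young asbestos lungs the values were 0.319, 0.0854 and 0.234 for numbers 1, 2 and 4, and 0.319 was the highest of any pair of groups. A fit with a replicate block within age, on the asbestos libraries with numbers present in both sorts, also called the 3 members of the old sort comparison, and 2561 of 13089 genes tested, against 1570 of 13629 without the block; the libraries and genes fitted differ as well as the block.

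The 10 genes, the wider list, its named genes (up to 4 called per comparison and direction, by p) and the markers were chosen with earlier results of these data known. The same holds for the rule that left libraries out of the main fit. The genes most like a member are named for the 3 members with the widest range of group means.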

Additional observations from a re-analysis of the deposited data

Results flagged for a closer look

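Of 60 sets of 4 libraries (10 genes in 6 groups, all 24 libraries), 9 had a library far from the other 3 by Dixon's test, and chance gives about 1 in 20. In 5 of the 9 the library was 1 of the 2 left out of the tests. Young asbestos Siglec F-high replicate 3 was highest for Map1lc3a (102 CPM) and Wipi1 (30.9 CPM) and lowest for Gabarapl1 (39.9 CPM) and Becn1 (53.4 CPM). Old asbestos Siglec F-high replicate 3 was lowest for Map1lc3a (29.9 CPM).

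In the kept libraries, replicate 2 was the lowest Wipi1 library of both naive groups (9.59 CPM in young and 9.61 CPM in old mice). Young asbestos Siglec F-low replicate 2 was lowest for Becn1 (89.2 CPM) and replicate 1 lowest for Optn (32.9 CPM), and in both cases the other 3 libraries lay close together.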

How the results depend on the processing

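DESeq2 and RLE size factors kept all 70 member differences on their side of the threshold, and no called member difference changed sign under any alternative (9 of the 70, none called in either fit, did so with all 24 libraries). With all 24 libraries the members called fell to 0 in the 3 age and both asbestos comparisons and the old sort comparison, and to 1 in the young sort comparison; genes called overall were 268, 628, 174, 256, 100, 660 and 575, against 1065, 976, 959, 691, 525, 1633 and 1570. For Vmp1 in the old sort comparison the value was -0.0076, and the cause was not tested. Fitting only the groups compared left 1 member in naive age and 1 in young asbestos (686 and 412 genes overall); without a filter on low counts, 1 was called in asbestos Siglec F-high age and 1 in young asbestos, and Atg5 in the young and Wipi1 in the old sort comparison were lost (adjusted p = 0.160 and 0.0511). Atg5 was also lost with only the groups compared (0.0659). In asbestos Siglec F-high age, limma voom called 5 members and the additive replicate block 4; limma voom called 1894, 1963, 1265, 1908, 701, 2392 and 2112 genes overall.

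Leaving out 1 library gave 1 to 3 members in naive age, 1 to 3 in asbestos Siglec F-high age, 1 to 2 in young asbestos, 1 to 2 in old asbestos, 2 to 3 in the young and 1 to 4 in the old sort comparison; over all genes the calls ranged from 730 to 1131, 486 to 1090, 653 to 1080, 201 to 837, 216 to 643, 853 to 1912 and 1013 to 1721 in the 7 comparisons. In all, 33 of 1540 member values lost a call and 3 gained one. The fit with a replicate block within age, on the asbestos libraries alone, added Sqstm1 in the young sort comparison (0.21, adjusted p = 0.00426) and changed no other member call; it called 3410 of 13089 genes tested there, against 1633 of 13629, with the libraries and genes fitted differing as well as the block. Interactions called 2 genes each, against 12 and 29 in DESeq2, 3 and 14 with the additive block, 3 and 7 with no filter, 0 and 0 with all 24 libraries, and 15 (limma voom) and 166 (block within age) for age by sort. Low-count members (Wipi1, Optn, 142 or more counts a library) have the widest SEs.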
